A study of Glycine max with 12 samples.

Results

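Of the 11072 long noncoding RNAs (lncRNAs) assembled from young soybean pods, 123 lay outside the 20 numbered chromosomes. They were chosen by position alone, as every transcript whose chromosome entry was not a number from 1 to 20. The mitochondrial chromosome (MT) held 3 of them and unplaced scaffolds held 120, on 59 scaffolds. The samples were young pods of MT72 and of JN18. MT72 is a low-linolenic acid mutant, grown here in the fourth generation after soybean was treated with ethyl methanesulfonate, and JN18 is a high-oil variety, labelled wild type and used as the control. Each was sampled at 40 d and at 30 d after flowering, with 3 biological replicates, which gave the groups MT_40 (libraries MT_4, MT_5 and MT_6), MT_30 (MT_7, MT_8 and MT_9), JN_40 (JN_4, JN_5 and JN_6) and JN_30 (JN_7, JN_8 and JN_9). The labels name no transgene or treatment at sampling. MT72 is 1 mutant line, and neither the labels nor the methods name JN18 as its parent, so the mutations and other differences between the lines cannot be told apart. Total RNA was depleted of ribosomal RNA, made into stranded libraries and sequenced as paired reads of 150 bases. The pod tissue could not be checked against marker genes, because the table used here holds lncRNAs only. In whole pods, fewer cells of a type and less RNA per cell cannot be told apart.

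A lncRNA is a long transcript that shows no sign of coding for a protein. Such transcripts are named by where they lie, as intergenic, intronic, sense or antisense to a gene, and some plant lncRNAs regulate neighbouring genes or bind small RNAs. An unplaced scaffold is a piece of assembled sequence that has not been assigned to a chromosome, often because it is repetitive. The mitochondrion has its own genome, which encodes parts of the respiratory chain and of ATP synthase, and plant mitochondrial genomes are transcribed widely between genes.

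Expression was given as FPKM, a measure of level that is scaled by transcript length and library size. The deposited table also holds the mean read coverage of every transcript. The ratio of coverage to FPKM was the same for all transcripts of a library and gave a depth of 10.0 to 12.3 Gb of aligned bases. Over the libraries this implies more reads than the total of raw reads stated in the paper, and the difference was not resolved. All read numbers given here are estimates that rest on the deposited coverage. At the depth from this ratio, 1 FPKM in a transcript of 338 bases, the median length of the 123 lncRNAs, stood for 22.6 to 27.7 reads. Library JN_9 stood apart, with 2847 of all lncRNAs listed at 0, against 2074 to 2360 in the other libraries, so the results that its omission changes are also given without it.

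Most of the 123 lncRNAs were intergenic. By class code, 79 (64.2%) were intergenic (u), 32 (26.0%) were intronic (i), 6 were sense transcripts that share a splice junction with a gene (j), 3 were sense transcripts that overlap its exons (o) and 3 were antisense (x). On the 20 chromosomes 39.3% of 10949 lncRNAs were intergenic and 46.8% were intronic. The lengths ran from 201 to 2741 bases with a median of 338 bases, which was also the median on the chromosomes. There were 108 transcripts with 1 exon and 15 with 2 exons, and none had more, while 6.90% of lncRNAs on the chromosomes had 3 or more exons. A strand was not listed for 95 of the 123, so sense and antisense could not be told apart for these. These proportions are descriptions of the list and were not tested.

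The scaffold lncRNAs were spread thinly. A lone lncRNA was listed on 44 of the 59 scaffolds, and 9 scaffolds held 2. Scaffold NW_014573403.1 held 32, between positions 404306 and 3496868, of which 16 were intronic and 13 intergenic. Their mean FPKM over 12 libraries ran from 0 to 26.2 with a median of 0.421. NW_014573404.1 held 9, from 559377 to 1198056, with means of 0.0423 to 0.863 FPKM. NW_014573410.1 held 5, from 102340 to 353624, with means of 0.0241 to 1.75 FPKM. The sources used here do not name the genome build of these positions.

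Adjacent lncRNAs were often close. Of 63 pairs of adjacent lncRNAs on the same sequence, 29 were less than 5000 bases apart, among them 2 that overlapped. Some of these pairs share a host gene or are isoforms of a single gene model. Spacing on the chromosomes was not set beside them. At the scaffold ends, 5 lncRNAs started within the first 50 bases of their scaffold. A host gene was named for 44 of the 123, and the names pointed to 31 genes, of which 29 were found in the gene table of assembly Glycine_max_v4.0. LOC100797428 hosted 6 intronic lncRNAs on NW_014573403.1, from MSTRG.53399.3 to MSTRG.53404.1, between 3155749 and 3167345. Their means lay between 0.328 and 1.05 FPKM. The levels of these 6 added up to 2.10, 2.73 and 3.43 FPKM in MT_40 and 3.06, 3.59 and 3.72 FPKM in MT_30. They added up to 2.60, 3.29 and 4.06 FPKM in JN_40 and to 4.19, 5.03 and 5.2 FPKM in JN_30. The groups overlapped within MT72, while the 3 sums of JN_30 were above those of JN_40. Each of the 6 was above 0.1 FPKM often enough to be tested, and with all libraries none passed a test described below. Without JN_9, MSTRG.53400.1 passed the looser rule described below in 3 comparisons. Its log2 fold changes were then -1.22 for MT_40 versus MT_30, -1.39 for JN_40 versus JN_30 and -1.48 for MT_30 versus JN_30. None of these passed the adjusted threshold (limma, adjusted p = 0.210, 0.280 and 0.350). It had 0.0297 FPKM in JN_9, against 1.11 and 0.894 FPKM in JN_7 and JN_8.

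Nearly all of the 123 lncRNAs were found in pods of both lines. Any FPKM above 0 counted as detection, and 119 were detected in at least 1 library. Of these, 103 were detected in every group and 70 in all 12 libraries. MT_40 libraries detected 105 ± 2.08 of them and MT_30 libraries 102 ± 1.53, while JN_40 libraries detected 101 ± 3.61 and JN_30 libraries 102 ± 4.04 (SD, n = 3 each). MSTRG.53390.1, MSTRG.53585.1, MSTRG.53613.2 and MSTRG.53745.1 were listed at 0 in all libraries.

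Few lncRNAs were seen in pods of a single line. MSTRG.53614.1, in 2 libraries, and MSTRG.53682.1, in 1 library, were detected only in MT72. MSTRG.53521.1 (3 libraries), MSTRG.53522.1 (2 libraries), MSTRG.53615.1 (4 libraries) and MSTRG.53683.1 (1 library) were detected only in JN18. These 6 are named after their values were seen. None was detected in every library of its line, and the highest value among them was 0.985 FPKM, for MSTRG.53522.1 in JN_7. These few detections rest on low read numbers and no difference between lines was read from them.

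Levels spanned a wide range. The median of the 123 mean levels was 0.458 FPKM, against 0.382 FPKM for the lncRNAs of the chromosomes. The mean was above 1 FPKM for 25 lncRNAs, above 10 FPKM for 5 and under 0.1 FPKM for 20. The 3 mitochondrial lncRNAs were the 3 highest, and together they made up 62.7% to 86.8% of the summed FPKM of the 123 in a library.

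**Figure D1:**
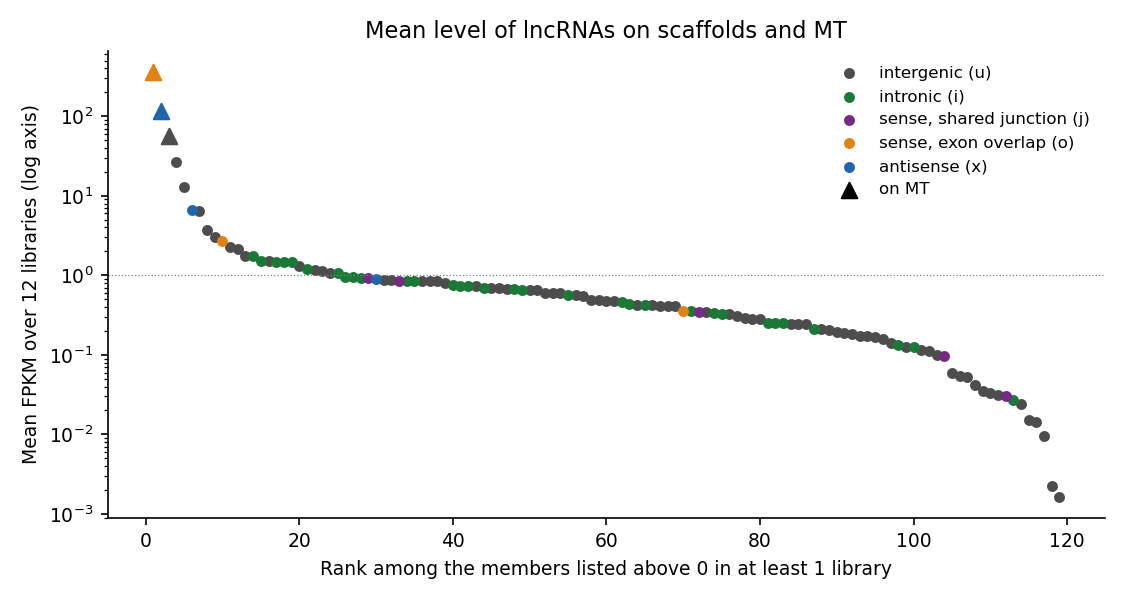
Mean FPKM over 12 libraries (log axis) of the 119 lncRNAs listed above 0 in at least 1 library, in order of level. Colours give the class code, triangles are the 3 mitochondrial lncRNAs and the dotted line marks 1 FPKM, above which 25 lncRNAs lay.

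The highest of all 123 was MSTRG.53309.1, which lies in sense to atp1-3. The gene atp1 encodes the alpha subunit of ATP synthase, the enzyme that makes ATP at the inner membrane. The transcript has 530 bases in 2 exons, which span positions 297372 to 361728 of the plus strand of MT. It overlaps exons of its host on the same strand, so its reads and those of the gene may not be fully separable. It had 333, 433 and 306 FPKM in MT_40 and 429, 505 and 554 FPKM in MT_30. It had 180, 431 and 313 FPKM in JN_40, against 475, 284 and 85.0 FPKM in JN_30. The lowest value was that of JN_9, and the groups overlapped in both lines. On the log2 scale the difference was -0.48 ± 0.66 (SE) for MT_40 versus MT_30 and 1.13 ± 0.66 (SE) for MT_30 versus JN_30, and neither passed (limma, adjusted p = 0.793 and 0.476). Without JN_9 the second was 0.42 (limma, adjusted p = 0.835).

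MSTRG.53266.1 lay opposite mttB, the gene of a membrane protein of the mitochondrial twin-arginine translocation pathway. It has 869 bases in 1 exon on the minus strand of MT, from 401690 to 402558. Its level was the steadiest of the mitochondrial lncRNAs. MT_40 had 112, 106 and 105 FPKM and MT_30 had 103, 99.8 and 99.1 FPKM. JN_40 had 114, 152 and 122 FPKM and JN_30 had 145, 124 and 117 FPKM, the last in JN_9. All 6 MT72 libraries were below all 6 JN18 libraries. The differences were small beside the fitted spread, with log2 fold changes of -0.24 ± 0.35 (SE) for MT_40 versus JN_40 and -0.35 ± 0.35 (SE) for MT_30 versus JN_30 (limma, adjusted p = 0.960 and 0.693). The fitted spread is pooled over the groups and drawn towards a trend with level over all lncRNAs tested. It is therefore not that of these replicates alone. The 95% interval of the difference at 30 d ran from -1.10 to 0.40, which does not show that the lines are alike.

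MSTRG.53321.1 is intergenic, with 1958 bases in 1 exon on the minus strand of MT, from 390660 to 392617. It had 45.5, 51.7 and 49.3 FPKM in MT_40 and 68.8, 68.6 and 78.1 FPKM in MT_30. In JN18 it had 50.8, 79.7 and 54.2 FPKM at 40 d, against 68.8, 49.2 and 10.6 FPKM at 30 d. The 3 MT_40 values lay below the 3 MT_30 values, and the lowest value of all was in JN_9. The stage difference in MT72 was -0.56 ± 0.55 (SE) on the log2 scale and did not pass (limma, adjusted p = 0.687). MT_30 versus JN_30 gave 1.12 ± 0.55 (SE, limma, adjusted p = 0.396), and 0.30 without JN_9 (limma, adjusted p = 0.788).

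MSTRG.53309.1 and MSTRG.53321.1 both had their highest group mean in MT_30 and their lowest library in JN_9, while MSTRG.53266.1 had its lowest mean in MT_30. MSTRG.53309.1 was 1.58 to 5.59 times as high as MSTRG.53266.1 in 11 libraries, and 0.728 times as high in JN_9. All 3 mitochondrial lncRNAs together made up 1.41% to 1.69% of the summed FPKM of all lncRNAs in MT_40 libraries and 1.75% to 2.29% in MT_30. The share was 1.45% to 2.12% in JN_40 and 2.01% to 2.03% in JN_7 and JN_8, against 0.913% in JN_9. A sum of lncRNA FPKM is not a measure of all mitochondrial RNA, since mRNAs were not analysed here.

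**Figure D2:**
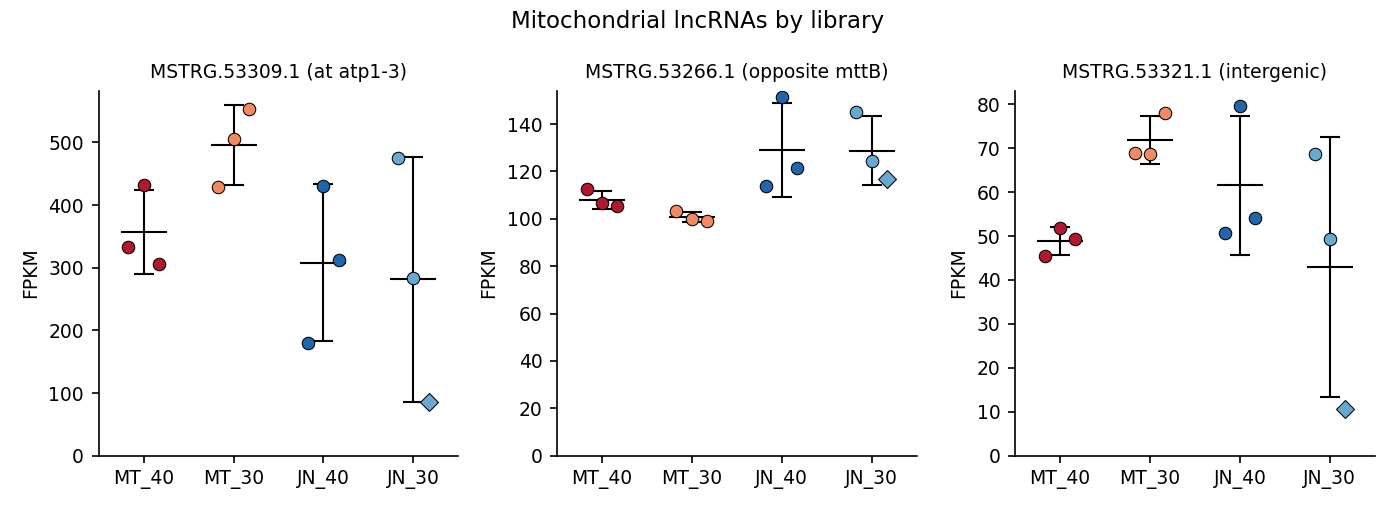
FPKM of the 3 mitochondrial lncRNAs in each library, with the group mean and SD (n = 3 libraries) as bars and JN_9 as a diamond. JN_9 is the lowest library for MSTRG.53309.1 (85.0 FPKM) and MSTRG.53321.1 (10.6 FPKM), while MSTRG.53266.1 stays between 99.1 and 152 FPKM.

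Among scaffold lncRNAs, MSTRG.53343.1 and MSTRG.53365.1 were above 10 FPKM on average. Both are intergenic, have 1 exon and lie on the minus strand of NW_014573403.1. MSTRG.53343.1, with 2741 bases from 1289994 to 1292734, is the longest of the 123. It had 12.6, 22.9 and 19.9 FPKM in MT_40 and 16.1, 39.9 and 59.5 FPKM in MT_30. It had 20.6, 16.7 and 24.9 FPKM in JN_40, against 11.6, 59.1 and 11 FPKM in JN_30. JN_8 stood far above JN_7 and JN_9, and all groups overlapped.

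MSTRG.53640.1 and MSTRG.53559.1 overlap genes and were among the 10 highest of the 123. MSTRG.53640.1, antisense to LOC106797945 on NW_014573536.1 (411 to 11003), averaged 5.86 ± 1.54 FPKM in MT_40 and 6.74 ± 0.591 FPKM in MT_30, against 7.52 ± 2.15 FPKM in JN_40 and 6.56 ± 1.5 FPKM in JN_30 (SD, n = 3 each). MSTRG.53559.1, a sense transcript at LOC100785796 on NW_014573413.1 (203310 to 214282), averaged 2.67 ± 0.396 FPKM in MT_40 and 2.08 ± 0.440 FPKM in MT_30, against 2.52 ± 0.593 FPKM in JN_40 and 3.47 ± 2.03 FPKM in JN_30 (SD, n = 3 each). Its highest value, 5.64 FPKM, was in JN_9. The groups overlapped for both.

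Differences between groups were tested with limma on log2 of FPKM plus 0.1, so that fold changes of low transcripts are understated. Of the 123 lncRNAs, 105 were above 0.1 FPKM in at least 3 libraries and were tested. The Benjamini-Hochberg adjustment covered the 9142 lncRNAs of the series that passed this filter, and an adjusted p of at most 0.05 was called. A looser rule, with an unadjusted p of at most 0.05 and a log2 fold change beyond 1, is given beside it, along with the number of lncRNAs whose libraries did not overlap between groups. Transcripts can pass the filter through a single group, so these counts hold only for the 105 tested.

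In MT72 pods, 4 scaffold lncRNAs rose at 40 d relative to 30 d. MSTRG.53747.1 was called lower, but it exceeded 0.1 FPKM only in the 3 MT_30 libraries and so passed the filter through the group where it is high. With it the 5 calls were 4.76% of the 105 tested, where 2.50% of all lncRNAs tested were called, and nothing is read from the difference between these shares. At the looser rule 7 (6.67%) were higher, where the background was 6.81%, and 4 (3.81%) were lower, where it was 7.37%. The libraries of the groups did not overlap for 28 (26.7%), close to the 28.6% of all lncRNAs tested. The median log2 fold change was -0.20 over the 105 and -0.10 over all lncRNAs tested. Of the 105, 44 were above 0 and 60 below, and over all lncRNAs tested 4097 were above 0 and 5029 below. The 5 calls became 2 without MT_5, MT_6 or MT_9 and 3 without MT_7 or MT_8. Without JN_9 all 5 stayed called, and MSTRG.53415.1 and MSTRG.53716.1 also passed (limma, adjusted p = 0.0155 and 0.0101).

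MSTRG.53475.1 rose most clearly. It is an intergenic lncRNA of 523 bases and 1 exon, listed without a strand, at 772804 to 773326 of NW_014573405.1. It had 10.5, 9.28 and 7.36 FPKM in MT_40, against 1.55, 1.52 and 1.03 FPKM in MT_30. In JN_40 it had 7.98, 6.45 and 5.17 FPKM and in JN_30 it had 8.06, 9.05 and 10.3 FPKM. The 3 MT_30 libraries were low and the other 9 were above 5 FPKM. MT_40 versus MT_30 gave a log2 fold change of 2.65 ± 0.28 (SE, limma, adjusted p = 0.000446), and it passed without each library in turn. In MT_30 the transcript still had 40.4 to 61.4 estimated reads per library.

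The neighbours of MSTRG.53475.1 on the scaffold were far lower. MSTRG.53476.1 starts 1476 bases beyond its end, and MSTRG.53477.1 and MSTRG.53478.1 follow it. Their means over 12 libraries were 0.246, 0.182 and 0.0336 FPKM, against 6.52 FPKM for MSTRG.53475.1. MSTRG.53476.1 averaged 0.140 ± 0.142 FPKM in MT_40 and 0.341 ± 0.0787 FPKM in MT_30 (SD, n = 3 each). MSTRG.53476.1 and MSTRG.53477.1 passed no test at the adjusted p, and MSTRG.53478.1 was too low to be tested.

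MSTRG.53721.1 and MSTRG.53721.2 rose as well. They are intergenic transcripts of a single gene model on the plus strand of NW_014573942.1, with 1574 bases (2921 to 4601) and 1362 bases (2929 to 4601), each in 2 exons. MSTRG.53721.1 has a CPC coding score of 0.283, the highest of the 123. It had 7.86, 5.33 and 3.57 FPKM in MT_40, against 1.17, 0.881 and 0.815 FPKM in MT_30. It had 4.69, 4.03 and 2.74 FPKM in JN_40, against 4.96, 3.99 and 4.61 FPKM in JN_30. As for MSTRG.53475.1, the 3 MT_30 libraries were the lowest of the 12. MT_40 versus MT_30 gave 2.37 ± 0.33 (SE) on the log2 scale (limma, adjusted p = 0.00338), which passed without each library in turn.

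MSTRG.53721.2 had 0.634, 1.54 and 1.55 FPKM in MT_40, against 0, 0.261 and 0.102 FPKM in MT_30. It had 0.701, 0.628 and 1.08 FPKM in JN_40, against 2.28, 2.35 and 2.74 FPKM in JN_30. The stages did not overlap in either line, with MT_30 lowest and JN_30 highest of the groups. On the log2 scale MT_40 versus MT_30 was 2.70 ± 0.49 (SE, limma, adjusted p = 0.0119). This call was lost without MT_5, MT_6 or MT_9 in turn, with an adjusted p of up to 0.0638 by limma. Reads shared by the isoforms were divided between them by the assembler, so the split is less certain than the sum. The sum of both was 6.83 ± 1.68 FPKM in MT_40 and 1.08 ± 0.139 FPKM in MT_30, against 4.62 ± 0.786 FPKM in JN_40 and 6.98 ± 0.550 FPKM in JN_30 (SD, n = 3 each).

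MSTRG.53414.1 and MSTRG.53415.1 share the host LOC102661624 on NW_014573403.1. MSTRG.53414.1 is a sense transcript with 949 bases in 2 exons on the plus strand (3281487 to 3285944), and MSTRG.53415.1 is an intronic one of 957 bases within that span (3282645 to 3283601), listed without a strand. MSTRG.53414.1 had 0.619, 1.86 and 0.915 FPKM in MT_40, against 0.0173, 0.0903 and 0.165 FPKM in MT_30. It had 0.765, 2.16 and 0.949 FPKM in JN_40, against 0.952, 1.36 and 0.432 FPKM in JN_30. The MT_30 libraries were the 3 lowest and held 1.22 to 11.7 estimated reads each. MT_40 versus MT_30 gave a log2 fold change of 2.64 ± 0.55 (SE, limma, adjusted p = 0.0244). The call was lost without MT_5, MT_6, MT_7, MT_8 or MT_9 in turn, with an adjusted p of up to 0.108 by limma.

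MSTRG.53415.1 had 1.14, 1.47 and 1.96 FPKM in MT_40, against 0.280, 0.0502 and 0.0263 FPKM in MT_30. It had 1.24, 4.68 and 1.61 FPKM in JN_40, against 0.878, 4.10 and 0.213 FPKM in JN_30. It was low in MT_30 and in JN_9. The log2 fold change of 3.04 ± 0.79 (SE) for MT_40 versus MT_30 missed the adjusted threshold (limma, adjusted p = 0.0648), and passed without JN_9 (limma, adjusted p = 0.0155) and without JN_8.

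MSTRG.53747.1, an intergenic lncRNA of 239 bases at 1234 to 1472 of NW_014574385.1, had its highest values in MT_30. It was listed at 0, 0 and 0.0108 FPKM in MT_40, against 0.134, 0.286 and 0.203 FPKM in MT_30. In JN18 it was at 0 in all libraries but JN_8, which had 0.00625 FPKM. Its log2 fold change was -1.54 ± 0.35 (SE, limma, adjusted p = 0.0352), a size that depends on the pseudocount because MT_40 is near 0. It could be tested only because of the 3 MT_30 libraries, so this is a description and not support for a difference, and no fit without an MT_30 library or with the filter at 0.5 FPKM gave a value. The MT_30 values stand for 2.37 to 5.29 estimated reads per library. The call was lost without any 1 library of MT_40 or of JN_40, where limma gave an adjusted p of up to 0.129.

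**Figure D3:**
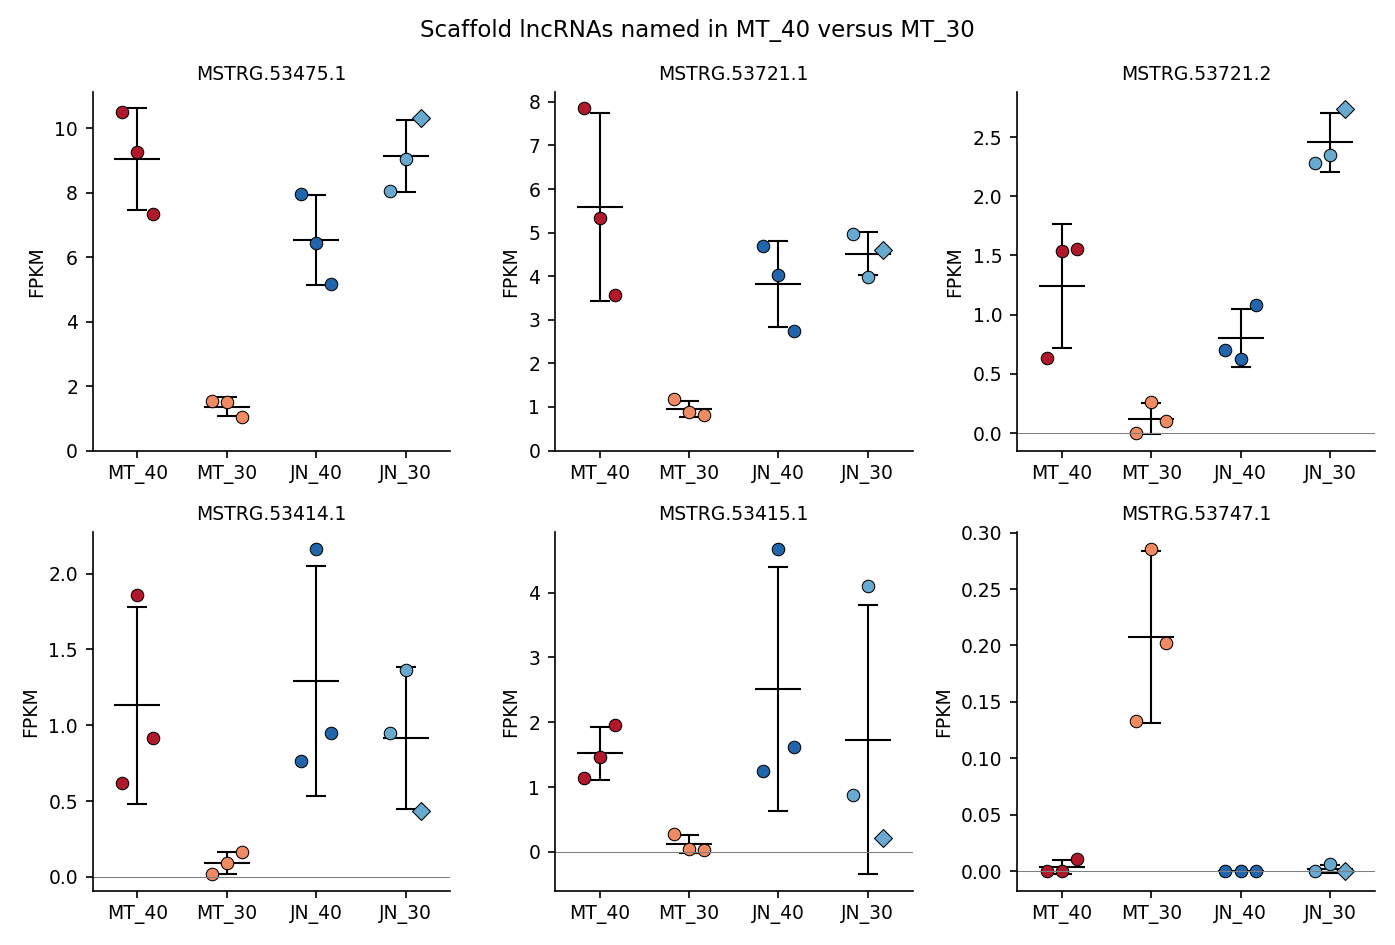
FPKM of 6 scaffold lncRNAs named for MT_40 versus MT_30 in each library, with the group mean and SD (n = 3 libraries) as bars and JN_9 as a diamond. The MT_30 libraries are the lowest for MSTRG.53475.1, MSTRG.53721.1, MSTRG.53721.2 and MSTRG.53414.1 and the highest for MSTRG.53747.1, and MSTRG.53415.1 is low in MT_30 and in JN_9.

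Other lncRNAs in MT72 passed only the looser rule. MSTRG.53555.1, intergenic on NW_014573416.1 (379957 to 380634), had 0.386, 0.0746 and 0.160 FPKM in MT_40, against 0.638, 1.21 and 0.892 FPKM in MT_30. Its log2 fold change was -1.81 ± 0.71 (SE, limma, adjusted p = 0.230). MSTRG.53364.1, intronic to LOC100783315 on NW_014573403.1 (2539583 to 2539866), had 0.330, 0.384 and 0.423 FPKM in MT_40, against 0.813, 0.983 and 0.986 FPKM in MT_30. Its log2 fold change was -1.10 ± 0.37 (SE, limma, adjusted p = 0.157). The groups did not overlap for either of them. MSTRG.53716.1, intergenic on NW_014573892.1 (724 to 2477), is named after its values were seen, because it lay just beyond the adjusted threshold. It had 1.26, 1.26 and 1.24 FPKM in MT_40, against 0.228, 0.399 and 0.454 FPKM in MT_30, with a log2 fold change of 1.59 ± 0.40 (SE, limma, adjusted p = 0.0550). It passed without JN_7 or JN_9 (limma, adjusted p = 0.0382 and 0.0101).

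In JN18 pods no scaffold or mitochondrial lncRNA passed the adjusted threshold for JN_40 versus JN_30 (limma, 0 of 105, with 12 at an unadjusted p of at most 0.05). Of all lncRNAs tested, 0.197% passed. At the looser rule 2 (1.90%) were higher at 40 d, where the background was 5.49%, and 8 (7.62%) were lower, where it was 5.14%. The libraries did not overlap for 15 (14.3%), against 13.1% of all lncRNAs tested. The median log2 fold change was -0.23 over the 105 and -0.08 over all lncRNAs tested. The looser count of 10 became 17 without JN_9 and also 17 without JN_8.

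The largest of these differences in JN18 had a wide error. MSTRG.53579.1 is an intergenic lncRNA of 1091 bases and 2 exons on the minus strand of NW_014573433.1 (47042 to 49628). It had 1.07, 0 and 2.76 FPKM in JN_40, against 4.41, 11.2 and 5.83 FPKM in JN_30. In MT72 it had 0.791, 2.91 and 4.52 FPKM at 40 d, against 2.48, 0 and 0.515 FPKM at 30 d. Zeros stood beside values of several FPKM within a group, and JN_30 alone was high throughout. The log2 fold change for JN_40 versus JN_30 was -3.27 ± 1.21 (SE, limma, adjusted p = 0.297), and that for MT_30 versus JN_30 was -3.63 ± 1.21 (SE, limma, adjusted p = 0.199).

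MSTRG.53553.1 and MSTRG.53648.1 separated the stages of JN18 in opposite directions. MSTRG.53553.1, intergenic on NW_014573415.1 (294346 to 294579), had 0.150, 0.151 and 0.281 FPKM in JN_40, against 0.804, 1.21 and 0.300 FPKM in JN_30. Its log2 fold change was -1.43 ± 0.45 (SE, limma, adjusted p = 0.234). MSTRG.53648.1, intergenic on NW_014573555.1 (580 to 1209), had 1.23, 0.837 and 1.30 FPKM in JN_40, against 0.595, 0.649 and 0.260 FPKM in JN_30. Its log2 fold change was 1.08 ± 0.37 (SE, limma, adjusted p = 0.281). JN_9 was the lowest library of JN_30 in both. Without it MSTRG.53553.1 gave -1.92 (limma, adjusted p = 0.0603), and MSTRG.53648.1 gave 0.74 and no longer passed the looser rule (limma, adjusted p = 0.313). MSTRG.53721.2 was lower in JN_40 than in JN_30 by the looser rule, with a log2 fold change of -1.53 ± 0.49 (SE, limma, adjusted p = 0.239).

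Averaged over both lines, 5 lncRNAs (4.76% of the 105) passed for 40 d versus 30 d, 3 higher and 2 lower, against a background of 4.05%. The 2 that fell were MSTRG.53634.1 and MSTRG.53623.1, and both had negative log2 fold changes in each line. MSTRG.53634.1, intergenic on NW_014573533.1 (4467 to 5034), had 1.04, 0.945 and 0.932 FPKM in MT_40, against 1.48, 2.39 and 2.29 FPKM in MT_30. It had 0.967, 1.30 and 1.14 FPKM in JN_40, against 2.99, 2.49 and 3.16 FPKM in JN_30. All 6 libraries at 40 d were below all 6 at 30 d. The mean log2 fold change was -1.13 ± 0.20 (SE, limma, adjusted p = 0.00752), and it passed without each library in turn.

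MSTRG.53623.1, intergenic on NW_014573507.1 (17902 to 18133), had 0.680, 0.752 and 0.644 FPKM in MT_40, against 1.07, 1.65 and 2.54 FPKM in MT_30. It had 0.491, 0.713 and 0.460 FPKM in JN_40, against 1.28, 1.56 and 1.58 FPKM in JN_30. Again all 6 libraries at 40 d were below all 6 at 30 d. The mean log2 fold change was -1.22 ± 0.25 (SE, limma, adjusted p = 0.0153), and the call was lost without MT_9 (limma, adjusted p = 0.0533). Neither lncRNA passed the adjusted threshold within a single line. At the looser rule MSTRG.53623.1 was lower in both lines, with log2 fold changes of -1.15 in MT72 and -1.28 in JN18. MSTRG.53634.1 was lower at that rule in JN18, with a log2 fold change of -1.27. The difference between the lines in the stage effect was 0.29 ± 0.41 (SE) on the log2 scale for MSTRG.53634.1. For MSTRG.53623.1 it was 0.13 ± 0.50 (SE).

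The 3 that were higher on average, MSTRG.53414.1, MSTRG.53475.1 and MSTRG.53721.1, were those low in MT_30. Their log2 fold changes in JN18 were 0.44 ± 0.55, -0.49 ± 0.28 and -0.26 ± 0.33 (SE), so that for the last pair the average joins opposite signs. The average over lines gave 1.54, 1.08 and 1.06 (limma, adjusted p = 0.0447, 0.00752 and 0.0238). Leaving out 1 library ended the call for MSTRG.53414.1 in 10 of 12 fits and for MSTRG.53721.1 in 6 of 12. The number of lncRNAs passing was 5 with all libraries and 10 without JN_9, 8 without JN_8 and 2 without MT_9. It was 3 without any 1 of MT_4, MT_5, MT_8, JN_4 and JN_5.

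At 30 d, 3 scaffold lncRNAs fell in MT72 relative to JN18 and none passed in the other direction (limma, 0 higher at the adjusted p, with 6 at the looser rule). The 3 calls were 2.86% of the 105, where the background was 0.886%. Among them were MSTRG.53721.1 and MSTRG.53721.2, isoforms of a single gene model, so the calls do not stand for separate genes. The calls of both isoforms were lost when the compared groups were fitted alone. Nothing is read from the difference between these shares. At the looser rule 6 (5.71%) were higher, where the background was 7.25%, and 9 (8.57%) were lower, where it was 4.73%. The libraries did not overlap for 20 (19.0%), against 17.7% of all lncRNAs tested. MT_30 libraries enter this comparison and that of the stages in MT72, so the calls of one are not independent of the other.

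The 3 lncRNAs were MSTRG.53475.1, MSTRG.53721.1 and MSTRG.53721.2, with the library values given above. MT_30 versus JN_30 gave log2 fold changes of -2.67 ± 0.28, -2.14 ± 0.33 and -3.72 ± 0.49 (SE, limma, adjusted p = 0.000405, 0.00686 and 0.00238). All 3 passed without JN_9 (limma, adjusted p = 0.00109, 0.0160 and 0.00841). The call for MSTRG.53721.1 was lost without MT_9 (limma, adjusted p = 0.0545). MSTRG.53414.1 missed the threshold with a log2 fold change of -2.37 ± 0.55 (SE, limma, adjusted p = 0.0700) and passed without JN_9 (limma, adjusted p = 0.0465).

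At 40 d no lncRNA of the 105 passed for MT_40 versus JN_40 (limma, 0 at the adjusted p, with 7 at an unadjusted p of at most 0.05), where the background was 0.153%. At the looser rule 5 (4.76%) were higher, against a background of 3.40%, and 0 were lower, against 2.45%. The looser count of 5 became 8 without MT_4, JN_4 or JN_6. The libraries did not overlap for 14 (13.3%), against 14.0% of all lncRNAs tested. MSTRG.53475.1 and MSTRG.53721.1, which differed between the lines at 30 d, gave 0.47 ± 0.28 and 0.50 ± 0.33 (SE) on the log2 scale at 40 d (limma, adjusted p = 0.847 and 0.857). The 95% intervals were -0.13 to 1.07 and -0.21 to 1.21.

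MSTRG.53553.1 had the smallest p of this comparison among the 105. It had 0.866, 0.833 and 1.42 FPKM in MT_40, against 0.150, 0.151 and 0.281 FPKM in JN_40. MT_30 had 1.12, 1.43 and 1.55 FPKM. At 40 d its log2 fold change was 1.95 ± 0.45 (SE, limma, adjusted p = 0.234), and it passed without JN_9 (limma, adjusted p = 0.0410), a library that enters this comparison only through the shared estimate of the spread. MSTRG.53351.1, intergenic on NW_014573403.1 (1911187 to 1911462), had 0.362, 0.519 and 0.849 FPKM in MT_40, against 0, 0.304 and 0.0973 FPKM in JN_40, with a log2 fold change of 1.70 ± 0.55 (SE, limma, adjusted p = 0.558). The groups did not overlap for either lncRNA.

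Averaged over the stages, 4 lncRNAs (3.81% of the 105) passed for MT72 versus JN18, 2 higher and 2 lower, against a background of 1.01%. Nothing is read from the difference between these shares. MSTRG.53365.1, with 368 bases on NW_014573403.1 (2631108 to 2631475), was higher in MT72. It had 6.97, 15.8 and 17.1 FPKM in MT_40, against 3.33, 3.56 and 6.17 FPKM in JN_40. It had 15.2, 27.7 and 40.1 FPKM in MT_30, against 7.39, 10.8 and 2.39 FPKM in JN_30. Within each stage all MT72 libraries were above all JN18 libraries, and JN_9 was the lowest of the 12. The mean log2 fold change was 1.84 ± 0.39 (SE, limma, adjusted p = 0.0416), and 1.53 without JN_9 (limma, adjusted p = 0.0408). It was lost without MT_5, MT_6, MT_8, MT_9, JN_4 or JN_5 in turn, with an adjusted p of up to 0.118 by limma.

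MSTRG.53647.1, intergenic with 284 bases on the minus strand of NW_014573540.1 (11466 to 11749), was also higher in MT72. It had 1.22, 2.58 and 1.55 FPKM in MT_40, against 0.171, 1.06 and 0.323 FPKM in JN_40. It had 2.21, 1.71 and 5.01 FPKM in MT_30, against 0.926, 0.673 and 0.527 FPKM in JN_30. All 6 MT72 libraries were above all 6 JN18 libraries. The mean log2 fold change was 1.81 ± 0.38 (SE, limma, adjusted p = 0.0441), with 1.81 at each stage. The call was lost in 10 of the 12 fits that left out a library, among them that without JN_9 (limma, adjusted p = 0.0658), with an adjusted p of up to 0.121 by limma.

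The 2 that were lower in MT72 on average were MSTRG.53475.1 and MSTRG.53721.2, at -1.10 ± 0.20 and -1.60 ± 0.34 (SE, limma, adjusted p = 0.0176 and 0.0466). Their calls between the lines lay at 30 d. The average call was lost without MT_5, MT_6 or MT_9 for MSTRG.53475.1, and in 11 of the 12 fits that left out a library for MSTRG.53721.2. The number of lncRNAs passing for MT72 versus JN18 was 4 with all libraries and 0 without MT_5, MT_6 or MT_9. It was 1 without JN_4 and 2 without MT_7, MT_8, JN_5, JN_6 or JN_9.

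MSTRG.53353.1, a low lncRNA on NW_014573403.1 (1917370 to 1917631), separated the lines at 30 d by the looser rule. It had 0.858, 0.686 and 1.08 FPKM in MT_30, against 0.192, 0.280 and 0 FPKM in JN_30, the last in JN_9. The log2 fold change was 2.11 ± 0.83 (SE, limma, adjusted p = 0.282). Without JN_9 it was 1.53 and no longer passed the looser rule (limma, unadjusted p = 0.102, adjusted p = 0.565). It is 1 of 5 intergenic lncRNAs between 1906719 and 1929127 of the scaffold, MSTRG.53350.1 to MSTRG.53354.1, whose means ran from 0.174 to 0.684 FPKM.

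**Figure D4:**
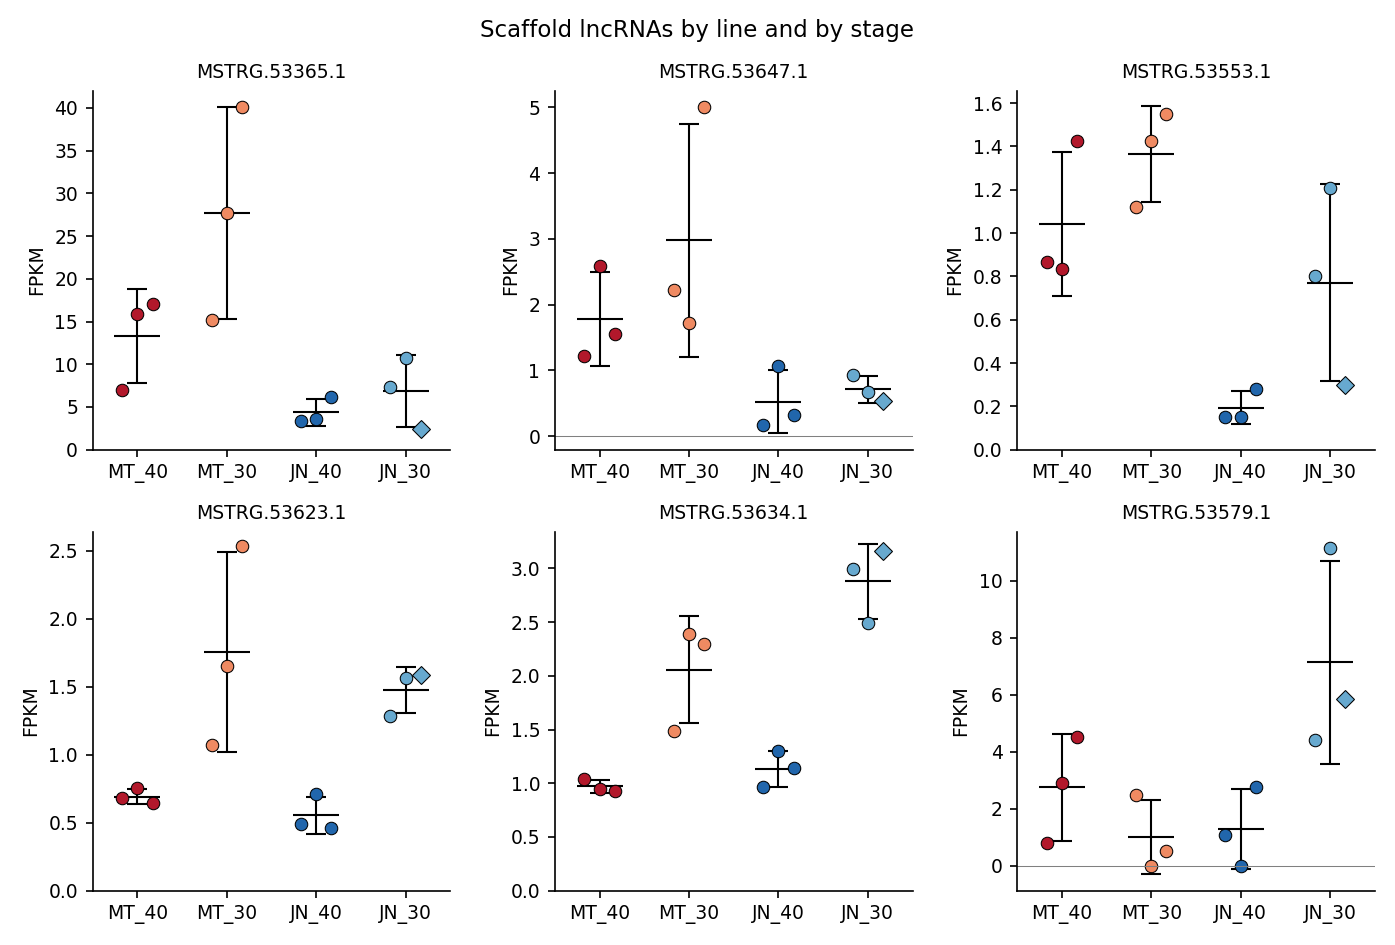
FPKM of 6 scaffold lncRNAs in each library, with the group mean and SD (n = 3 libraries) as bars and JN_9 as a diamond. MSTRG.53365.1, MSTRG.53647.1 and, at 40 d, MSTRG.53553.1 are higher in MT72, MSTRG.53623.1 and MSTRG.53634.1 are lower at 40 d in both lines, and MSTRG.53579.1 ranges from 0 to 11.2 FPKM.

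The stage effect itself differed between the lines for MSTRG.53475.1 and MSTRG.53721.2, 2 of the 105 (1.90%), against a background of 0.0766%. Nothing is read from the difference between these shares. The count became 0 without MT_5, MT_7, MT_8, MT_9 or JN_6, and 1 without MT_6 or any other JN18 library. The stage effect of MT72 minus that of JN18 was 3.14 ± 0.39 (SE) on the log2 scale for MSTRG.53475.1 and 4.23 ± 0.69 (SE) for MSTRG.53721.2 (limma, adjusted p = 0.0196 and 0.0445). Within MT72 both were higher at 40 d in 3 of 3 libraries, and within JN18 both were lower at 40 d in 3 of 3. In either direction, the stages did not overlap for 28.6% of all lncRNAs tested in MT72 and 13.1% in JN18. The share apart in opposite directions was not counted. The fall in JN18 passed the adjusted threshold for neither (limma, adjusted p = 0.51 and 0.239). For the difference between stage effects, MSTRG.53721.1 gave 2.64 ± 0.46 (SE) and missed the threshold (limma, adjusted p = 0.0662). The call for MSTRG.53475.1 was lost without MT_5, MT_7, MT_8, MT_9 or JN_6, with an adjusted p of up to 0.111 by limma. The call for MSTRG.53721.2 was lost in 11 of the 12 fits that left out a library, with an adjusted p of up to 0.176 by limma, and without JN_9 it was 0.0776.

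**Figure D5:**
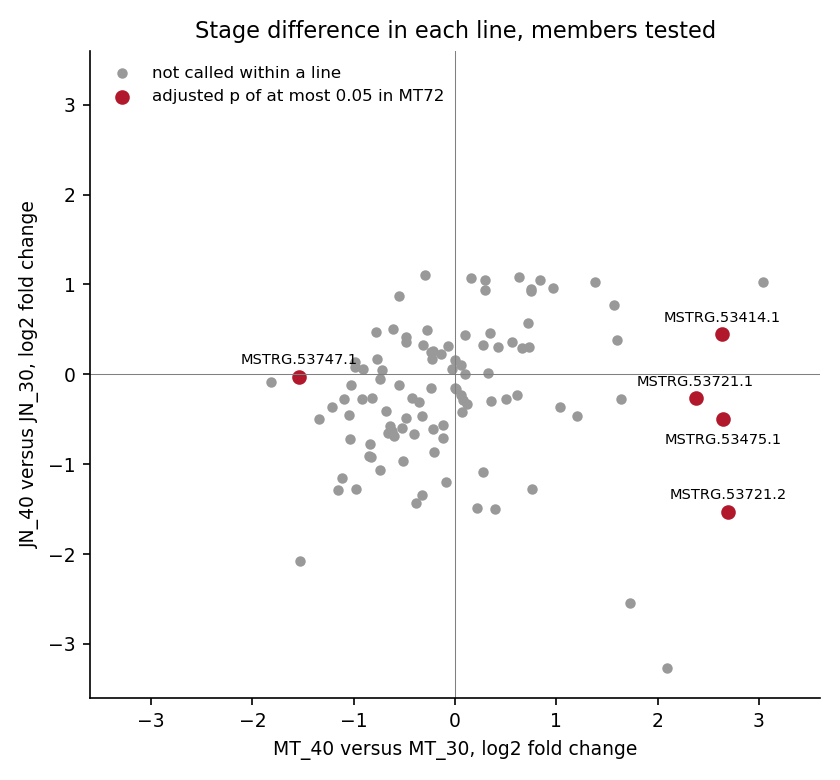
Log2 fold change of MT_40 versus MT_30 (horizontal axis) and of JN_40 versus JN_30 (vertical axis) for the 105 lncRNAs tested. Red points passed an adjusted p of at most 0.05 in MT72, and 4 of these 5 lie to the right at 2.37 to 2.70, with JN18 values of -1.53 to 0.44.

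By class, calls in MT72 between stages fell on 4 of 64 intergenic lncRNAs tested, MSTRG.53747.1 included, and 1 of 10 sense or antisense ones (limma, adjusted p). Among the 31 intronic ones, 1 was higher and 1 lower at the looser rule. The 4 intergenic calls include MSTRG.53721.1 and MSTRG.53721.2, isoforms of a single gene model. Over all lncRNAs tested 2.50% were called at the adjusted p, and 6.81% were higher and 7.37% lower at the looser rule. Calls were not counted by class on the chromosomes, and nothing is read from the class counts. The median log2 fold change for MT_40 versus MT_30 was -0.36 over the 31 intronic lncRNAs, -0.08 over the 64 intergenic ones and -0.10 over all lncRNAs tested. In JN18 the medians were -0.27 and -0.15, beside -0.08 over all lncRNAs tested. Of the intronic ones, 23 of 31 in MT72 and 19 of 31 in JN18 were below 0. Over all 9142 lncRNAs tested, 5029 in MT72 and 4964 in JN18 were below 0. Intronic lncRNAs of the chromosomes were not set beside them as a class. No call rests on these medians, which were not tested.

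JN_9 carried many of the extreme values among scaffold lncRNAs. Of the 119 detected lncRNAs, 26 had their highest FPKM in JN_9, against 3 to 14 in each other library. MSTRG.53565.1 and MSTRG.53566.1, named after their values were seen, lie 390 bases apart on NW_014573424.1 (21749 to 22426 and 22817 to 25161) and are intergenic. MSTRG.53565.1 had 3.31 FPKM in JN_9 and 0 to 0.179 FPKM in the other 11 libraries. MSTRG.53566.1 had 3.22 FPKM in JN_9 and 0 to 0.0902 FPKM in the others. The values in JN_9 stand for 182 and 615 estimated reads, and JN_7 and JN_8 of the same group were at 0 for both. MSTRG.53395.1, also named after its values were seen, is a sense transcript at LOC102663258 on NW_014573403.1 and had 2.38 FPKM in JN_9 and 0.0450 to 0.349 FPKM in the others. The part of library quality in these values was not tested.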

How the data were processed

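The authors extracted RNA from pods of MT72 and JN18 at 40 d and 30 d (3 libraries per group), removed ribosomal RNA, sequenced stranded libraries, trimmed reads with Cutadapt, mapped them and assembled transcripts with StringTie. HISAT2 is named in the methods and TopHat2 in the submitters' processing notes. Their versions and the genome build are not named in the sources used here. The deposited FPKM values and the deposited coverage, a signal per base, were made by the authors with StringTie. The deposited CPC and CNCI scores rate coding potential and led the authors to drop coding transcripts. The deposited class codes, exon numbers and lengths were copied. Read numbers were estimated from coverage, transcript length and the read length of 150 bases.

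All 12 libraries were mapped to groups through their labels. limma 3.58.1 in R 4.3.3 (trend, all 4 groups in 1 fit) was run on log2(FPKM + 0.1), two-sided, on the lncRNAs that exceeded 0.1 FPKM in 3 or more libraries. The study tested counts, and the table used here holds none. The spread that p-values measure is that between biological replicates, pooled over the 4 groups. It is also drawn towards a trend with level fitted over all lncRNAs tested. The fit was tested on simulated data. Named lncRNAs are those on MT, the 10 highest by mean, all with an adjusted p of at most 0.05 in any contrast, up to 5 per direction with the largest fold change at the looser rule (groups apart, higher mean of 0.5 FPKM or more), those in all libraries of 1 group or line alone (none was), and scaffolds with 5 or more. Other lncRNAs, such as neighbours, those at 0 and those singled out in JN_9 or in 1 line, were named after their values were seen. The lncRNAs and lists were chosen with earlier results of these data known. Alternatives covered pseudocounts of 0.01 and 1, no filter, a filter at 0.5 FPKM, rescaled FPKM, the compared groups alone, a replicate block and omission of each library. Sequences, mRNAs and miRNAs were not analysed here. How reads with several matching positions were treated was not stated. Depth limits short transcripts under 0.1 FPKM to a few reads.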

Additional observations from a re-analysis of the deposited data

Results flagged for a closer look

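The stage effect differed between the lines for MSTRG.53475.1 and MSTRG.53721.2, by a test of the difference itself. The stage effect of MT72 minus that of JN18 was 3.14 on the log2 scale for MSTRG.53475.1 (SE 0.39, limma, adjusted p = 0.0196). It was 4.23 for MSTRG.53721.2 (SE 0.69, limma, adjusted p = 0.0445). Both were higher at 40 d in 3 of 3 MT72 libraries and lower at 40 d in 3 of 3 JN18 libraries than in any library at 30 d of the same line. Libraries of the stages did not overlap, in either direction, for 28.6% of all lncRNAs tested in MT72 and 13.1% in JN18. The share apart in opposite directions was not counted. Such separation was itself a rule for flagging, so it is a description and not added support. The fall in JN18 passed the adjusted threshold for neither (limma, adjusted p = 0.51 and 0.239). Both calls for the difference were lost with a replicate block and in several fits that left out a library. MSTRG.53721.2 was listed at 0 in MT_7, so its value depends on the pseudocount and ran from 1.92 to 5.75 over the alternatives.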

How the results depend on the processing

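Of the single differences recomputed, 9 changed sign under an alternative, and none of these was called. Leaving out 1 library gave JN_40 versus JN_30 log2 values of -0.34 to 0.90 for MSTRG.53309.1, -0.12 to 0.088 for MSTRG.53266.1 (0.11 with rescaled FPKM), -0.35 to 0.85 for MSTRG.53343.1 and -0.75 to 0.13 for MSTRG.53559.1. For MT_40 versus JN_40 it gave -0.056 to 0.57 for MSTRG.53309.1, -0.37 to 0.058 for MSTRG.53343.1 and -0.061 to 0.26 for MSTRG.53559.1. It gave -0.034 to 0.24 for MSTRG.53640.1 in MT_30 versus JN_30, and -0.16 to 0.42 for the difference between stage effects of MSTRG.53623.1. Fitting the compared groups alone gave 8 lncRNAs at the adjusted p and 17 at the looser rule for MT_40 versus MT_30, and 1 at the adjusted p for MT_30 versus JN_30. A pseudocount of 1 gave 3, 1, 7 and 2 at the looser rule for MT_40 versus MT_30, JN_40 versus JN_30, MT_30 versus JN_30 and MT_40 versus JN_40, and 0 at the adjusted p for MT72 versus JN18. A pseudocount of 0.01 and no filter each gave 1 for the difference between stage effects and 1 for MT72 versus JN18. Rescaling FPKM and a filter at 0.5 FPKM moved no count by more than 1.5 times. Counting lncRNAs above 0.1 FPKM gave 91.33 per library in MT_40 and 92.33 in MT_30, against 89.33 in JN_40 and 90 in JN_30. The cause was not tested.

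Leaving out each library gave 2 to 7 adjusted calls for MT_40 versus MT_30 (10 to 16 at the looser rule), 0 for JN_40 versus JN_30 (9 to 17), 2 to 4 for MT_30 versus JN_30 (10 to 22) and 0 to 1 for MT_40 versus JN_40 (5 to 8). It gave 0 to 2 for the difference between stage effects, 2 to 10 for the stages averaged over lines and 0 to 3 for the lines averaged over stages. Library numbers are shared by MT72 and JN18 within a stage. Deviations of libraries with the same number correlated at -0.159 to 0.0136, so the numbers were not taken to pair the libraries. A replicate block on the number gave 3 adjusted calls for MT_30 versus JN_30, 0 for MT_40 versus JN_40, 0 for the difference between stage effects and 0 for MT72 versus JN18. Stages share no number and could not be blocked. Short transcripts under 0.1 FPKM rest on few reads, which limits what depth can show.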
